A study of Mus musculus with 8 samples.

Results

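In mouse embryonic fibroblasts (MEFs) on day 5 of reprogramming, 5357 genomic regions carried a NANOG peak with wild-type NANOG only and, in either arm, neither a BRG1 peak nor an H3K4me1 peak. The regions were selected on measured peak calls. NANOG (FLAG) and BRG1 peaks of both arms were merged where they overlapped or touched, which gave 93352 regions, and H3K4me1 peaks were laid over these. Of the 58326 regions with a NanogWT FLAG peak, 13862 had no NanogBiD FLAG peak, 10682 of those had no BRG1 peak in either arm, and 5357 of these in turn had no H3K4me1 peak in either arm. They therefore made up 9.18% of the NanogWT FLAG regions. Since the absence of NanogBiD FLAG, BRG1 and H3K4me1 peaks defined the regions, that absence is not a result here. H3K27ac peaks, position relative to genes, chromosome and DNA sequence took no part in the choice. They are not independent of it. Among NanogWT-only regions, those removed for BRG1 or H3K4me1 more often had H3K27ac and more often overlapped a promoter. Low shares of either against all merged regions are therefore partly built into the choice.

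The cells were MEFs with an Oct4-GFP reporter. All were made to express Oct4, which both arms share, together with either wild-type Nanog (NanogWT, labelled Nanog+Oct4) or a fusion labelled NanogN70+Oct4. That label was taken here to mean NanogBiD, which the paper describes as NANOG with the BRG1-interacting domain of SS18 at its N terminus. CUT&Tag, in which an antibody guides a transposase to its target, was performed for FLAG (the tag on NANOG), BRG1, H3K27ac and H3K4me1, the last 2 being modifications of histone H3. Each of the 8 combinations of arm and target has 1 library, into which the authors had merged replicates, so there is no spread between replicates, no test was possible, and every comparison below is between libraries and not between conditions. The 95% Wilson intervals given with shares cover counting error only, and regions are not independent replicates.

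NANOG is a homeodomain factor of the pluripotency network of embryonic stem cells. BRG1, encoded by Smarca4, is an ATPase of the BAF complex, which moves nucleosomes, and SS18 is a subunit of that complex. H3K4me1 is found at enhancers, whether active or poised, and H3K27ac marks active enhancers and promoters. A peak of a transcription factor without either a remodeller or an enhancer mark is thus a peak without the usual signs of an enhancer. Factors that fibroblasts use at their own enhancers include AP-1, TEAD and RUNX proteins.

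The sequences at the FLAG summits are shown first, because their motif content differed from that of NanogBiD-only regions by more than counting error. Each line gives 50 bp either side of, and including, the highest FLAG summit of a region in the mm10 sequence (RefSeq GRCm38.p6, plus strand, 5′ to 3′), and capitals mark the match for which the window was chosen. The region with the highest FLAG score of all, and the next, held none of the 8 motifs searched. The others are the highest-scoring regions that held ATGTGCA, AP-1, TEAD, octamer, GTGCATA and CATCTGG words, on either strand. The last line is from the highest-scoring region of the comparison class with FLAG in NanogBiD only whose window held the NANOG-type homeodomain word TAATGG.
chr19:9767440-9767540, highest score: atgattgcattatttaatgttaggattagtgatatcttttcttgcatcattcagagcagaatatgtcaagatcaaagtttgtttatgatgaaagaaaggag
chr1:47037628-47037728, next in score: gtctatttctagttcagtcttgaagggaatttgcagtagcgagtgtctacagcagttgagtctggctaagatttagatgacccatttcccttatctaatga
chr6:9136633-9136733, ATGTGCA: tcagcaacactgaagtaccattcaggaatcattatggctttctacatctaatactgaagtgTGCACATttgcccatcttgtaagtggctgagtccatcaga
chr1:3580763-3580863, AP-1: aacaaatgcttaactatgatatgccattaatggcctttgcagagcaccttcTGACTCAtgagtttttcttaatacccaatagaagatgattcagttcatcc
chr10:38439372-38439472, TEAD: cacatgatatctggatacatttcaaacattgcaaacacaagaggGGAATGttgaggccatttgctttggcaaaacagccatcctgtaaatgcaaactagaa
chr17:59173340-59173440, octamer: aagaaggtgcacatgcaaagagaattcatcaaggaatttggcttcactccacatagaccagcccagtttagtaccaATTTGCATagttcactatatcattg
chr11:12850007-12850107, GTGCATA: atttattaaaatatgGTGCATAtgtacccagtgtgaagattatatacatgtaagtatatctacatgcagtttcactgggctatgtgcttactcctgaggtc
chr17:55741242-55741342, CATCTGG: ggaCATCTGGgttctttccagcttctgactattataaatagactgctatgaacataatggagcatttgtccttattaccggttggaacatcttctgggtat
chr14:115564615-115564715, NanogBiD only, TAATGG: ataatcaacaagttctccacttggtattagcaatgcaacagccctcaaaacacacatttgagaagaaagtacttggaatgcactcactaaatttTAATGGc

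All 8 lists start at a score of 50, the lowest the authors kept, and the libraries' depths are unknown. They held between 30859 peaks (NanogWT BRG1) and 74782 peaks (NanogBiD FLAG), and the NanogWT FLAG list held 58940. The fibroblast identity of the cells was checked at promoters. In each arm, 9 of 10 fibroblast genes had an H3K27ac peak within 2 kb of a start site, the exception being Prrx1 in both arms. In NanogWT none of 4 endothelial and none of 4 epithelial genes had such a peak, and 1 of 4 blood genes did (Cd68). In NanogBiD the counts were 2 of 4 (Cdh5 and Kdr), 1 of 4 (Krt8) and 2 of 4 (Ptprc and Cd68).

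The regions had low FLAG peaks. Their summits, measured as the number of overlapping tags at the highest point, had a median height of 10 tags and a maximum of 36. Of these summits, 95.6% had at least 8 tags and 8.46% had at least 17. The median over all NanogWT FLAG regions was 14 tags and the maximum 92. Only 813 of the 5357 (15.2%) reached 15 tags, against 48.0% of all NanogWT FLAG regions, and 79.5% had a score under 100, against 38.7%. The median width was 644 bp, against 1157 bp. Every one of the regions held a single NanogWT FLAG peak. The share of NanogWT FLAG regions that belonged to the set was lower at each step of summit height, with 23.3% of those with at most 8 tags and 18.4% at 9 to 10 tags, 11.7% at 11 to 13, 6.10% at 14 to 18, 2.05% at 19 to 28 and 0.244% at 29 tags or more. How many of the regions had NanogBiD signal just under the threshold of that list was not tested. FLAG height was part of what the choice rested on, and these values describe it.

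The 4 classes used for comparison were chosen likewise. NanogWT-only regions without BRG1 but with H3K4me1 (5325 regions) had a median height of 11 tags and NanogWT-only regions with BRG1 (3180) of 12. Regions with FLAG in both arms and neither BRG1 nor H3K4me1 (3014) had a median of 12 tags in NanogWT. The mirror class, FLAG in NanogBiD only without BRG1 or H3K4me1 (12765 regions, 17.2% of NanogBiD FLAG regions), had a median of 11 tags in its own library. The regions described here and those with H3K4me1 were thus nearly alike in FLAG height.

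**Figure D1:**
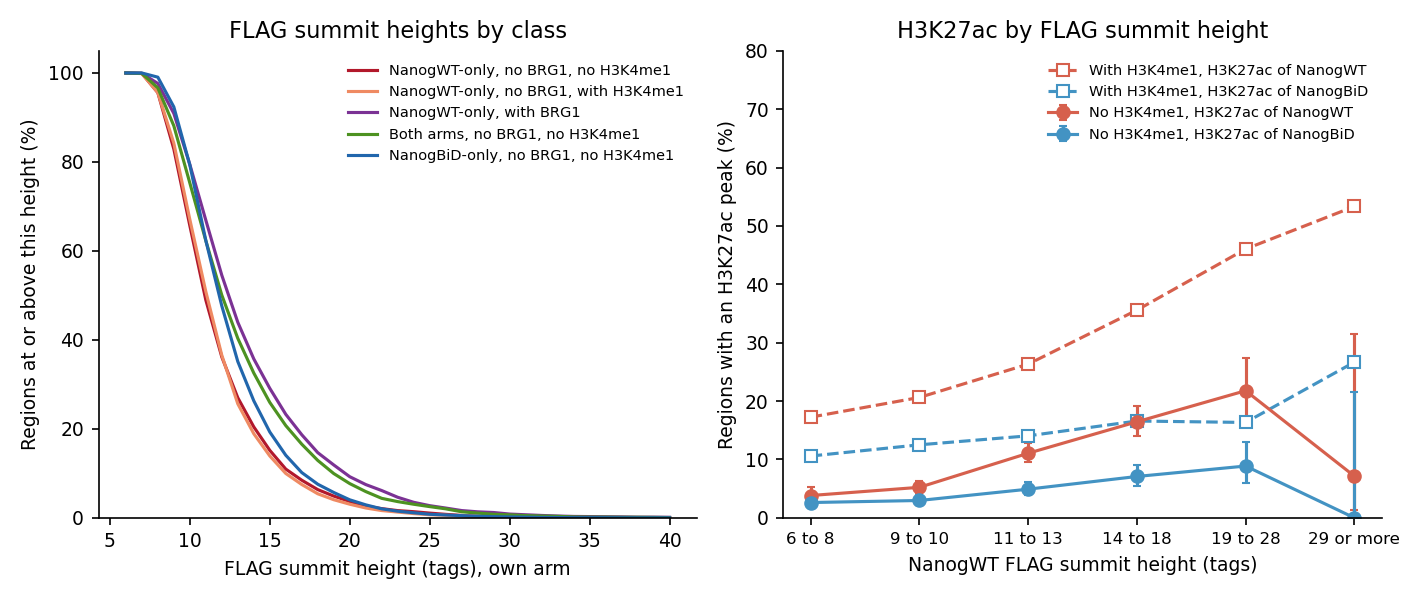
Left, percentage of regions of each class (vertical axis) at or above a given FLAG summit height in tags (horizontal axis), taken from the NanogWT library, or from NanogBiD for the NanogBiD-only class. Right, percentage of NanogWT-only regions without BRG1 that overlapped an H3K27ac peak, by FLAG height, for regions without H3K4me1 (filled, 95% Wilson intervals) and with H3K4me1 (open); without H3K4me1 the NanogWT H3K27ac share ran from 3.82% to 21.8% at 19 to 28 tags, and the last point is 1 of 14 regions.

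The regions varied widely in their distance to excluded peaks. The median gap to the nearest peak of any of the 5 excluded lists was 4.71 kb, with such a peak within 1 kb of 17.5% of the regions and within 5 kb of 51.7%, while 27.6% had none within 10 kb. The nearest NanogBiD FLAG peak was a median of 8.35 kb away, the nearest NanogWT BRG1 peak 24.6 kb, the nearest NanogBiD BRG1 peak 12.4 kb, the nearest NanogWT H3K4me1 peak 9.12 kb and the nearest NanogBiD H3K4me1 peak 12.7 kb. Just inside the rule, 131 regions (2.45%) had an excluded peak within 100 bp, and the smallest gaps were 1 bp to a NanogBiD FLAG peak and 21 bp to a NanogWT BRG1 peak, while 1 region touched a NanogWT H3K4me1 peak without overlap and 1 a NanogBiD H3K4me1 peak. Just outside it, 64 of the 5325 NanogWT-only regions with H3K4me1 (1.20%) overlapped an H3K4me1 peak by 100 bp or less, the smallest overlap being 1 bp.

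H3K27ac was uncommon at these regions, and it was more often called in the arm that had the NANOG peak. In NanogWT, 491 of 5357 regions (9.17%, 8.42 to 9.97) overlapped an H3K27ac peak, and in NanogBiD 234 did (4.37%, 3.85 to 4.95). Over all 93352 merged regions the shares were 34.4% in NanogWT and 42.2% in NanogBiD, in the opposite order, and the NanogBiD H3K27ac list was the longer, with 42598 peaks against 35452. The merged regions include those with BRG1 or H3K4me1, which the choice removed. Of the 5357 regions, 343 (6.40%) had H3K27ac in NanogWT only, 86 (1.61%) in NanogBiD only, 148 (2.76%) in both arms and 4780 (89.2%) in neither. When each peak was replaced by 100 bp either side of its summit, the rule held for 10846 regions and the arms differed less, 8.41% in NanogWT and 7.15% in NanogBiD.

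The order of the arms followed the arm of the FLAG peak in each class with FLAG in 1 arm. With H3K4me1, 25.2% (24.04 to 26.4) of NanogWT-only regions had NanogWT H3K27ac and 13.48% (12.6 to 14.4) had NanogBiD H3K27ac. With BRG1 the shares were 56.9% (55.2 to 58.7) and 42.2% (40.5 to 43.96). In the mirror class they were 1.402% (1.21 to 1.62) in NanogWT and 4.35% (4.01 to 4.72) in NanogBiD. Regions with FLAG in both arms, the class nearest to the present regions in the absence of BRG1 and H3K4me1, had 8.73% (7.77 to 9.79) and 10.2% (9.19 to 11.4), intervals that overlap. The NanogWT share at the regions described here was thus within counting error of that at FLAG regions shared by the arms, and the NanogBiD share was lower. In the arm with the FLAG peak, 9.17% of the regions described here had H3K27ac, against 4.35% of the mirror class. In the arm without it, the shares were 4.37% and 1.402%.

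**Figure D2:**
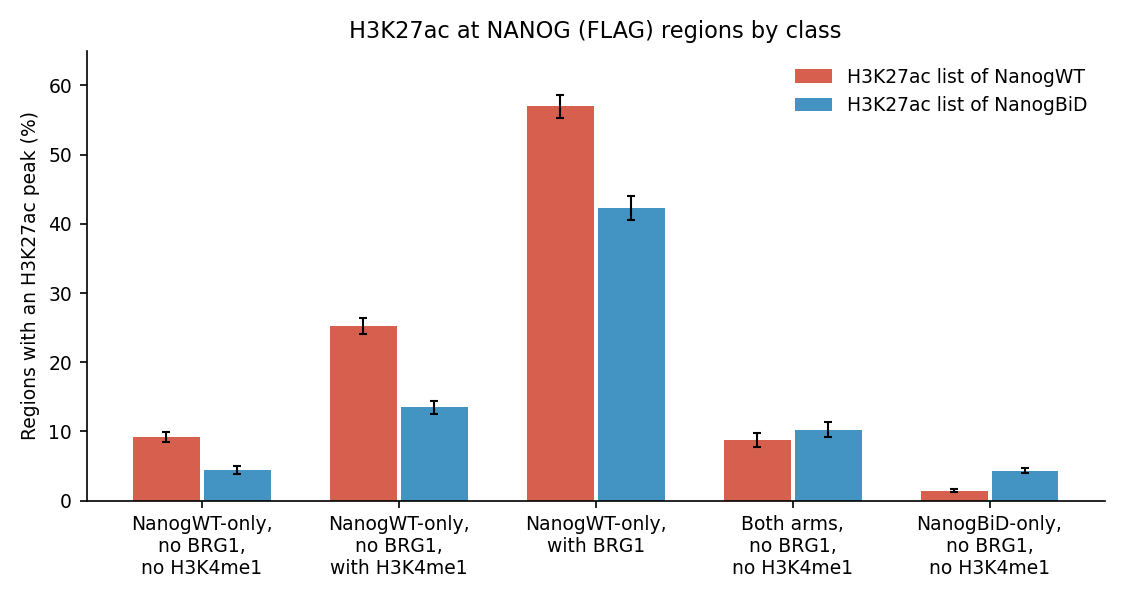
Percentage of regions in each class (horizontal axis) that overlapped an H3K27ac peak of the NanogWT (red) or NanogBiD (blue) list, with 95% Wilson intervals. The NanogWT-only regions without BRG1 or H3K4me1 stood at 9.17% and 4.37%, and the NanogBiD-only class at 1.402% and 4.35%.

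H3K27ac was more frequent at higher FLAG summits, up to 28 tags, and at promoters. The NanogWT H3K27ac share was 3.82% of the regions with at most 8 tags, 5.23% at 9 to 10, 11.1% at 11 to 13, 16.4% at 14 to 18 and 21.8% at 19 to 28 tags, where 248 regions remained. In NanogBiD the shares over the same heights ran from 2.62% to 8.87%. At 29 tags or more, H3K27ac was present at 1 of 14 regions in NanogWT (1.27 to 31.5%) and 0 of 14 in NanogBiD (0 to 21.5%). All NanogWT FLAG regions showed the same order at higher levels, with NanogWT H3K27ac at 16.9% up to 8 tags, 71.3% at 19 to 28 and 86.1% at 29 tags or more. At equal heights the regions with H3K4me1 had more H3K27ac, 17.2% at up to 8 tags and 46.0% at 19 to 28 in NanogWT. At promoters, 143 of 654 regions (21.9%, 18.9 to 25.2) had H3K27ac in NanogWT and 100 (15.3%, 12.7 to 18.3) in NanogBiD. Away from promoters the shares were 7.40% (6.69 to 8.18) and 2.85% (2.41 to 3.36) of 4703 regions. Where H3K27ac was present its peaks were lower than the list as a whole, with a median of 13 tags in NanogWT and 14 in NanogBiD against 16 over each full list. For the 148 regions acetylated in each arm, the H3K27ac summit height of NanogBiD over that of NanogWT had a median log2 ratio of 0.00, with the middle 50% from -0.24 to 0.23. Over the 27212 merged regions with H3K27ac in both arms it was 0.08. Heights were not scaled to depth, so the difference between these medians and not their sign can be read.

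The regions lay away from gene starts. Of 5357 regions, 654 (12.2%, 11.4 to 13.1) overlapped a promoter, taken as 2 kb either side of a start site in GENCODE M21, against 24.4% of all 93352 merged regions and 28.96% of all NanogWT FLAG regions. Both larger sets include regions with BRG1 or H3K4me1, which the choice removed. By the position of the summit, 10.3% lay in promoters, 2.63% in other exons, 46.0% in introns and 41.03% between genes. All bases of the assembled chromosomes divide as 10.7%, 2.49%, 34.7% and 52.1%, so the summits were in promoters about as often as bases are, and in introns more often. The median distance from a summit to a start site was 16.7 kb, against 9.93 kb for all NanogWT FLAG regions, and 1125 regions were over 50 kb away. The mirror class (median 16.8 kb) and the class shared by the arms (16.7 kb) were alike in this respect, while NanogWT-only regions with H3K4me1 (14.6 kb) and with BRG1 (9.10 kb) lay nearer to genes. Neighbouring regions were far apart, with a median gap of 262 kb, and 201 of 5336 gaps were 10 kb or less.

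**Figure D3:**
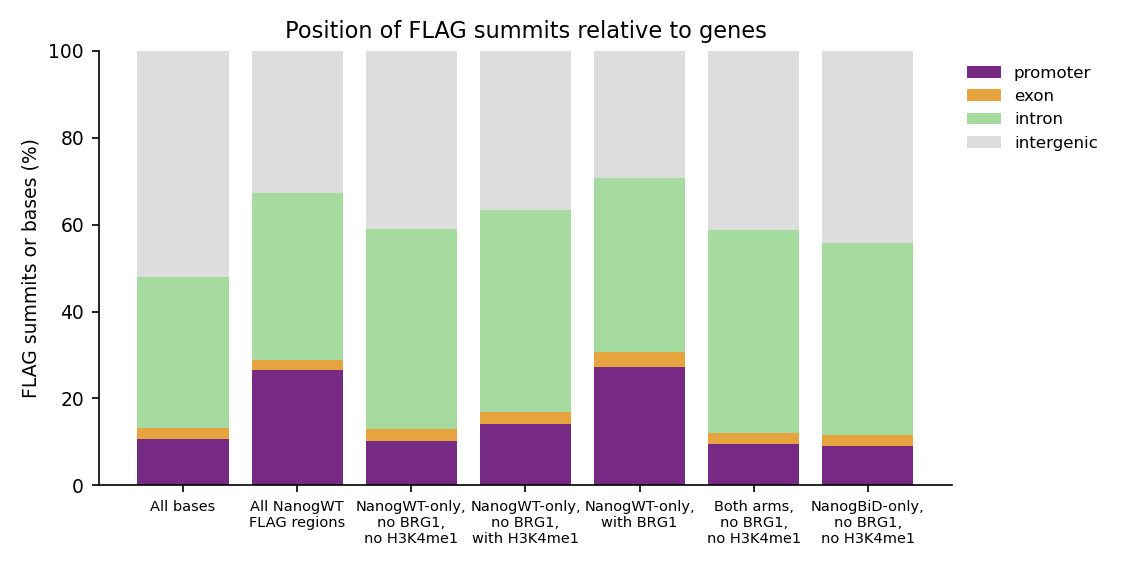
Percentage of FLAG summits (or, in the first bar, of all bases of chromosomes 1 to 19, X and Y) in promoters, other exons, introns and intergenic sequence, for all NanogWT FLAG regions and each class. NanogWT-only regions without BRG1 or H3K4me1 had 10.3% of summits in promoters, near the 10.7% of all bases and below the 26.4% of all NanogWT FLAG regions.

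The regions with the highest FLAG scores were intergenic or intronic and had no H3K27ac in either arm. The highest score, 411, was at chr19:9766526-9768132, a region of 1607 bp with a summit of 21 tags between genes, 80.1 kb from the nearest coding start site, that of Scgb2a2, a secretoglobin gene. The next, chr1:47036764-47038246 (score 405, 27 tags), was intergenic and 145 kb from Slc39a10, a zinc transporter gene. The third, chr6:9136222-9137464 (score 402, 27 tags), lay in an intron of Nxph1, which encodes the neurexin ligand neurexophilin 1. The others were chr2:114766867-114768542 (score 383, 20 tags, 113 kb from Dph6, an enzyme of diphthamide synthesis), chr9:75989088-75990829 (score 376, 20 tags, 24.4 kb from Hmgcll1, a lyase of ketone body metabolism) and chr6:10181362-10182861 (score 358, 22 tags, 1232 kb from Nxph1). The nearest excluded peak was between 12.4 kb and 521 kb away. In contrast to the set as a whole, where low regions predominate, these 6 had summits of 20 to 27 tags with no NanogBiD FLAG peak within 12 kb.

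Among regions with H3K27ac in both arms, the highest FLAG scores were 233 (22 tags) at chr13:104735727-104736697, in an intron of the spliceosome gene Cwc27, and 198 (13 tags) at chr1:114190734-114192499, which lay 1493 kb from Cntnap5a. Their H3K27ac summits were 13 and 15 tags in NanogWT and 10 tags each in NanogBiD, all below the list median of 16. With H3K27ac in NanogWT only, the leading regions were chrX:59612750-59614373 (score 319, 21 tags), 45.7 kb from a start site of Fgf13, and chr15:33276984-33277785 (score 291, 24 tags), in an intron of Cpq, a carboxypeptidase gene, and both had H3K27ac summits of 10 tags. With H3K27ac in NanogBiD only they were chr1:66279247-66279992 (score 153, 10 tags) in an intron of Map2, which encodes a neuronal microtubule-associated protein, and chr1:57684329-57685670 (score 151, 17 tags), 89.3 kb from Spats2l. Their H3K27ac summits were 11 and 12 tags. In all 6, the called H3K27ac was low.

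At promoters, the 654 regions included 438 at protein-coding genes, which touched 446 such genes. Another 78 (11.9%) were at long non-coding genes and 65 (9.94%) at pseudogenes only. The 12 coding genes with the highest-scoring promoter regions were Ankef1 (score 335, 22 tags), Pde1c (237, 22 tags), Eogt (207, 29 tags), Cabp1 (205, 16 tags), Ccdc175 (200, 16 tags), Cfap52 (192, 17 tags), Dnah14 (179, 14 tags), Fam91a1 (169, 33 tags), Serpina3m (161, 15 tags), Defb6 (160, 12 tags), Hsd17b7 (160, 30 tags) and Tmem87b (159, 18 tags). Pde1c encodes a calcium- and calmodulin-dependent phosphodiesterase, Eogt an O-GlcNAc transferase of the endoplasmic reticulum, Cabp1 a calcium-binding protein of neurons, Cfap52 and Dnah14 proteins of cilia and flagella, Serpina3m a serine protease inhibitor, Defb6 a beta-defensin and Hsd17b7 an enzyme of cholesterol synthesis. Only Defb6 and Tmem87b had H3K27ac there, each in NanogWT alone, with summits of 10 and 20 tags. The summits lay between 192 bp (Tmem87b) and 2565 bp (Fam91a1) from the nearest start site of the gene.

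At genes of 7 lists of 20 genes each, the regions were counted over the gene body and 20 kb either side. Over all 21938 protein-coding genes, 14.6% had at least 1 such region, and the regions made up 6.93% of the NanogWT FLAG regions counted, a region near several genes being counted at each. Pluripotency genes, most of them for transcription factors, had regions at 4 of 20 genes, 5 of 28 NanogWT FLAG regions (17.9%, 7.88 to 35.6). These were Nr5a2, Tdgf1, Sox2 and Klf5, with highest scores of 145, 133, 55.6 and 52.7, and none had H3K27ac. Nr5a2 and Klf5 encode factors that can support reprogramming, Sox2 a core pluripotency factor, and Tdgf1 a co-receptor of Nodal. At Sox2 the summit lay 11.9 kb from a start site of the gene and had 9 tags, near the lowest heights called.

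Mesenchymal transcription factors had regions at 6 of 20 genes, 9 of 102 NanogWT FLAG regions (8.82%, 4.71 to 15.9). The highest scores were at Runx2, a regulator of bone formation (165, 17 tags, in an intron), Tbx15, a T-box factor of limb mesenchyme (127, 16 tags), Zeb2 (96.1, 14 tags) and Osr2 (78.8, 8 tags). Zeb2, a repressor of epithelial genes, also had a region of 3959 bp over a start site (0.067 kb away), with 21 tags and H3K27ac in both arms. Extracellular matrix genes had regions at 5 of 20 genes, 9 of 95 NanogWT FLAG regions (9.47%, 5.06 to 17.03). These were within 2 kb of a start site at Col1a2 (85.8, 11 tags), Lum (75.2, 9 tags) and Postn (67.8, 10 tags), genes of collagen I, lumican and periostin, without H3K27ac there. At Col1a2 and Postn the region lay well inside the gene, at an internal annotated start site. Col1a2 did have an H3K27ac peak within 2 kb of at least 1 of its 7 start sites in each arm. Fbn1 (fibrillin 1) had 3 intronic regions of 9 to 10 tags, 1 of them with H3K27ac in NanogWT only. These are genes that fibroblasts express, and the region called at each was low.

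AP-1 and TEAD factors had regions at 2 of 20 genes, 2 of 100 NanogWT FLAG regions. They were Wwtr1, which encodes the TEAD co-activator TAZ (98.1, 11 tags), and Fosl1 (59.7, 8 tags), each with H3K27ac in NanogWT only. Epithelial genes had regions at 2 of 20, Grhl3 (68.9, 10 tags, 0.285 kb from a start site) and Esrp2 (63.0, 13 tags), 2 of 54 NanogWT FLAG regions (3.70%, 1.02 to 12.5). Signalling regulators had regions at 3 of 20, 10 of 172 NanogWT FLAG regions (5.81%, 3.19 to 10.4). Those were Lef1, a factor of Wnt signalling (114, 9 tags, H3K27ac in NanogWT only), Tgfb1 (94.1, 10 tags) and Fgfr2 (6 regions, none with H3K27ac, the highest at 91.2, 12 tags, 1344 kb from a start site but within the span of the gene in GENCODE M21), and Lef1 also had a region 1.71 kb from a start site (17 tags, no H3K27ac). Tgfb1 also had a region 0.304 kb from a start site, with 13 tags and H3K27ac in both arms.

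Neuronal adhesion and synapse genes had regions at 17 of 20, with 55 of 428 NanogWT FLAG regions (12.9%, 10.01 to 16.4). These genes are very long, with a median locus of 1213 kb against 57.4 kb for all coding genes. Per Mb of locus they had 1.96 such regions, against 2.20 over all coding genes, and 15.3 NanogWT FLAG regions, against 31.8. The mirror class made up 138 of 590 NanogBiD FLAG regions at these loci (28.1 Mb in all), against 9884 of 75472 over all coding genes (1952 Mb). Its share was thus likewise higher at these genes. The density of the regions described here was no higher at these genes than elsewhere, while NanogWT FLAG regions as a whole were sparser there. Examples are Nrxn3, a presynaptic neurexin (5 regions, highest score 224, 15 tags), Pcdh9 (3, 223, 15 tags) and Pcdh15 (5, 209, 12 tags), protocadherins, and Magi2, a synaptic scaffold (7, 223, 17 tags), and none of these 20 regions had H3K27ac in either arm. Of all coding genes, Rbfox1, a splicing factor of neurons, had the most, with 15 regions and no H3K27ac at any.

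On chromosome X the regions made up 234 of 1179 NanogWT FLAG regions (19.8%, 17.7 to 22.2). On the 19 autosomes the share was 8.96% (8.73 to 9.20), and it ranged from 7.83% on chromosome 11 to 9.70% on chromosome 1. NanogWT FLAG regions themselves were fewer on chromosome X, 6.89 per Mb against 23.2 on autosomes, and the regions described here 1.37 per Mb against 2.08. At matched height the difference remained, with 42.2% (33.6 to 51.3) against 22.7% (21.4 to 24.1) at up to 8 tags, 34.6% (29.1 to 40.5) against 17.95% (17.2 to 18.7) at 9 to 10, 22.4% (17.8 to 27.9) against 11.5% (10.9 to 12.05) at 11 to 13 and 9.40% (6.58 to 13.2) against 6.02% (5.63 to 6.44) at 14 to 18 tags. The gap was 10.9 percentage points in all, and it varied with the limit set on peaks, as did the autosomal share. When all lists were restricted alike it was 9.59 points with 20000 peaks a list (22.9% against 13.33%) and 6.72 at scores from 100 up (20.9% against 14.2%). When NanogWT FLAG alone was restricted, 3.97 points were left at scores from 100 up (6.96% against 2.99%) and 1.32 with 15 tags, where the X share rested on 19 of 452 regions (4.204%, 2.71 to 6.47, against 2.88%, 2.69 to 3.09).

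The peaks on which the choice rested are given for chromosome X as a description. On chromosome X, 62.3% of NanogWT FLAG regions had no H3K4me1 peak in either arm, against 26.7% on autosomes, while 35.7% against 29.8% had no BRG1 peak, and 27.1% against 23.7% had no NanogBiD FLAG peak. H3K4me1 peaks of NanogWT numbered 3.61 per Mb on chromosome X and 29.1 per Mb on autosomes, BRG1 peaks 3.17 and 12.3, and H3K27ac peaks 3.89 and 14.1. The mirror class was likewise 29.8% (27.6 to 32.1) of NanogBiD FLAG regions on chromosome X and 16.97% (16.7 to 17.2) on autosomes. The median FLAG height over all NanogWT FLAG regions was 13 tags on chromosome X and 14 on autosomes. Among the regions themselves, H3K27ac of NanogWT was present at 9.40% (6.29 to 13.8) on chromosome X and 9.16% (8.40 to 9.98) on autosomes. The part of chromosome copy number in these differences was not tested.

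**Figure D4:**
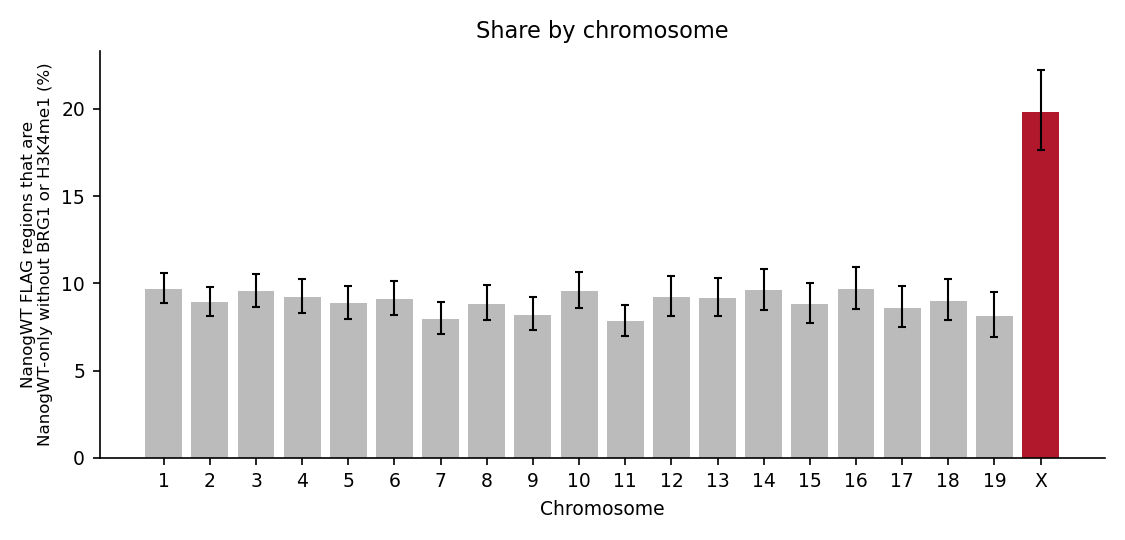
Percentage of NanogWT FLAG regions on each chromosome (horizontal axis) that had no NanogBiD FLAG, BRG1 or H3K4me1 peak, with 95% Wilson intervals. Chromosome X stood at 19.8% and the autosomes between 7.83% and 9.70%.

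At the summits, the NANOG-type homeodomain word differed from nearby sequence by less than counting error, whereas TEAD, AP-1, RUNX and octamer words were more frequent than nearby, as they also were over all NanogWT FLAG regions. A match is given for a window of 50 bp either side of the summit and for the same window 1 kb downstream, on both strands. The word TAATGG, bound by NANOG among other homeodomain proteins, was in 4.63% of summit windows (4.10 to 5.23) and 4.41% of windows 1 kb away (3.89 to 4.99). With the lists restricted to 20000 peaks each, which left 2702 regions, the word was more frequent at the summits, in 6.70% (5.82 to 7.70) against 4.66% (3.93 to 5.52) away. In regions with FLAG in both arms and no BRG1 or H3K4me1 the shares were 7.20% (6.33 to 8.18) and 4.78%, and in the mirror class 10.2% (9.72 to 10.8) and 4.53%. Over all NanogWT FLAG regions they were 4.99% and 3.99%. The other NanogWT-only classes also had TAATGG about as often as nearby sequence. With H3K4me1 the shares were 3.72% (3.24 to 4.26) and 3.79%, and with BRG1 3.33% (2.76 to 4.02) and 3.27%. The homeodomain word TAATTA, which shares 4 letters with TAATGG, was less frequent at the summits (2.54%, 2.15 to 2.995) than 1 kb away (3.58%, 3.12 to 4.12), while in the mirror class it was more frequent (7.39%, 6.95 to 7.85, against 3.95%). TAATTA was also less frequent than nearby in NanogWT-only regions with H3K4me1 (1.69% against 2.93%) and with BRG1 (1.73% against 2.89%).

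The TEAD word GGAATG was in 9.07% of the summit windows (8.33 to 9.87) and 5.21% of windows 1 kb away (4.64 to 5.84). In the mirror class it was in 6.31% (5.91 to 6.75) and 5.96%, and over all NanogWT FLAG regions in 7.41% (7.20 to 7.63) and 5.31%. The other classes had summit shares with intervals that overlap that of the regions described here. These were 8.33% (7.39 to 9.37) with FLAG in both arms and no BRG1 or H3K4me1. In NanogWT-only regions they were 8.02% (7.32 to 8.78) with H3K4me1 and 8.12% (7.22 to 9.12) with BRG1. The AP-1 words TGACTCA or TGAGTCA were in 200 of 5357 windows (3.73%, 3.26 to 4.28) and 75 of the windows away, in the mirror class in 6.53% (6.12 to 6.98) and 1.73%, and over all NanogWT FLAG regions in 5.84% (5.65 to 6.04) and 1.58%. The octamer ATGCAAAT, bound by OCT4, was in 1.38% (1.10 to 1.73) and 0.784%, against 2.81% (2.54 to 3.11) and 0.721% in the mirror class and 1.82% (1.71 to 1.93) and 0.674% over all NanogWT FLAG regions. AP-1 was thus less frequent at these summits than over all NanogWT FLAG regions, and the octamer intervals overlap. The SOX words, which were ACAAAGG or ACAATGG and, as further forms of the site, ACAAAGA or ACAATAG, were in 8.75% (8.03 to 9.54) and 7.49%, against 10.8% (10.3 to 11.4) and 7.36% in the mirror class and 7.64% (7.42 to 7.85) and 7.26% over all NanogWT FLAG regions. The RUNX word TGTGGTT was in 3.70% (3.22 to 4.24) and 2.17%, against 3.74% (3.43 to 4.09) and 2.42% in the mirror class and 3.17% (3.03 to 3.31) and 2.33% over all NanogWT FLAG regions, with overlapping intervals at the summits. The CTCF consensus was in 8 windows (0.149%). None of these motifs was in 71.1% of summit windows, against 77.2% of windows 1 kb away.

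The shares of TAATGG and AP-1 were alike at low and high summits. From regions with at most 8 tags to those with 14 tags or more, TAATGG went from 4.48% (3.32 to 6.02) to 4.66% (3.56 to 6.07) and AP-1 from 3.71% (2.67 to 5.14) to 3.11% (2.23 to 4.31), with overlapping intervals. In the mirror class TAATGG went from 6.78% (5.37 to 8.54) to 11.9% (10.9 to 13.1). At 9 to 10 tags, where heights are alike though depths may differ, TAATGG was in 4.73% (3.85 to 5.81) of the regions and 9.55% (8.66 to 10.5) of the mirror class, and TEAD in 8.91% (7.69 to 10.3) and 5.85% (5.15 to 6.64).

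**Figure D5:**
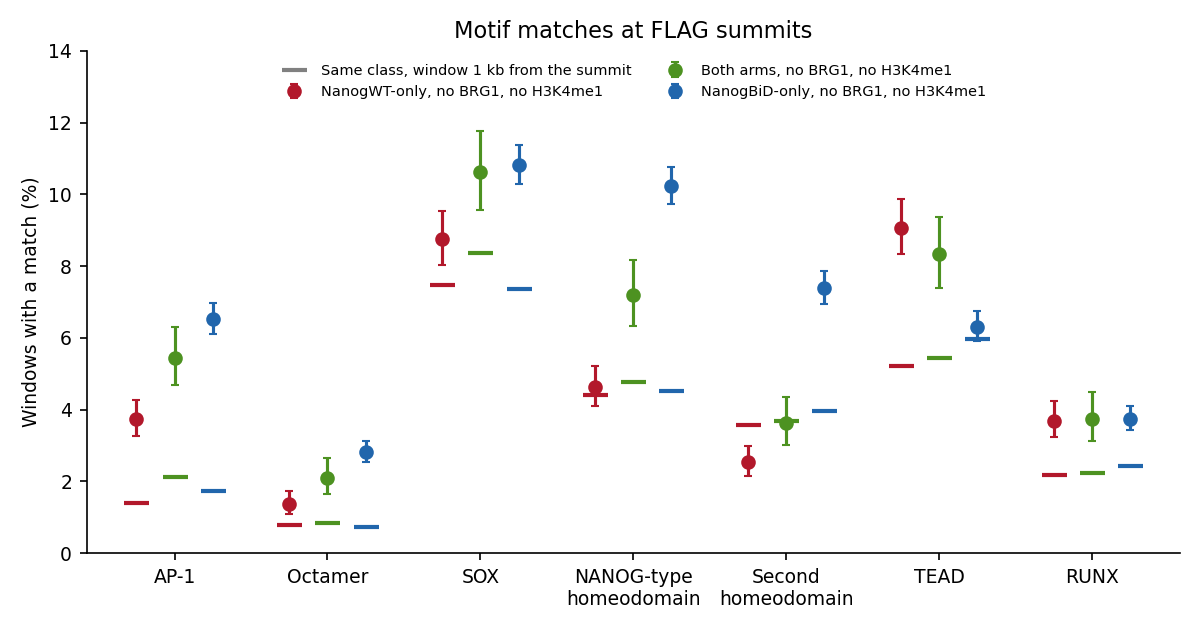
Percentage of windows of 50 bp either side of FLAG summits with a motif match (points, 95% Wilson intervals) and of windows 1 kb from the summit (dashes), for NanogWT-only, shared and NanogBiD-only regions, all without BRG1 or H3K4me1; the NANOG-type word is TAATGG and the second homeodomain word TAATTA. In the NanogWT-only regions the NANOG-type point (4.63%) lies at its dash (4.41%), and in the NanogBiD-only regions above it (10.2% and 4.53%).

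Counting all words of 7 letters, with a word and its reverse complement joined, ranked other words first. The ranking used the difference between summit windows and windows 1 kb away, divided by the square root of their sum, and it was made after the data were seen. GTGCATA led (3.94% of summit windows and 1.19% of windows away), followed by ATGCACA (6.50% and 2.82%), CATCTGG (4.37% and 1.49%), ATGTGCA (6.14% and 2.69%), ATATGCA (5.47% and 2.26%) and ACATCTG (5.51% and 2.31%). AP-1 was 12th. In the mirror class ATGAATA came first, followed by the AP-1 word TGACTCA, and 3 of the first 12 words were common to both classes. In the mirror class GTGCATA ranked 88th and CATCTGG 321st. Ranks are a description of these windows and carry no test.

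The leading words fell into overlapping groups. At least 1 of the words that are shifts of each other, from the pair GTGCATA and ATGCACA and from the further pair ATGTGCA and ATATGCA, was in 13.48% (12.6 to 14.4) of the summit windows, against 6.59% 1 kb away. The share was 13.26% (12.4 to 14.2) in NanogWT-only regions with H3K4me1, 10.6% (10.4 to 10.9) over all NanogWT FLAG regions and 10.1% (9.55 to 10.6) in the mirror class. Of the first 12 words, 5 hold an E-box (CANNTG, letters bound by basic helix-loop-helix factors). At least 1 of the 4 that hold CATCTG or CAGCTG, from the pair CATCTGG and ACATCTG and from the further pair ACAGCTG and CAGCTGC, was in 14.1% (13.2 to 15.1) and 5.77%, against 14.6% (13.7 to 15.5) with H3K4me1, 11.95% (11.7 to 12.2) over all NanogWT FLAG regions and 8.66% (8.19 to 9.17) in the mirror class. The other E-box word, CATTTGC, was in 3.85% of the summit windows and 4.01% of those of the mirror class. The words ATGAATA or AATGAAT, also among the first 12, were in 9.03% (8.30 to 9.83) of the summit windows, in fewer with H3K4me1 (6.12%, 5.51 to 6.80) and in more of the mirror class (11.67%, 11.1 to 12.2). In regions with FLAG in both arms and no BRG1 or H3K4me1, the GTGCATA group was in 12.1% (10.99 to 13.3), the 4 E-box words in 11.8% (10.7 to 12.98) and the ATGAATA pair in 12.6% (11.5 to 13.9). All these words were picked for their rank in the regions described here, which favours a higher share there than in classes not used for the ranking, so nothing is read from the differences.

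The summit windows had a mean GC content of 42.2% (SD 7.75 over 5357 windows), equal to 42.3% 1 kb away, while all NanogWT FLAG regions had 47.3% at the summit and the mirror class 39.9%. They held 1.02 CpG per window, against 2.41 over all NanogWT FLAG regions, and 2.02% held 5 CpG or more, against 15.9%. The summit base lay in soft-masked (repeat) sequence in 17.2% of the regions (16.3 to 18.3), against 26.7% 1 kb away, 11.3% of all NanogWT FLAG summits and 13.6% (13.04 to 14.2) of the mirror class. In regions with FLAG in both arms and no BRG1 or H3K4me1 it was 16.5% (15.2 to 17.9), an overlapping interval. Of the 722 windows with a word of the GTGCATA group, 29.2% had a soft-masked summit, and of the 758 with an E-box word 15.8% did. The part of mapping in repeats in these values was not tested.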

How the data were processed

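CUT&Tag libraries of MEFs on day 5 were analysed from their deposited peak and summit lists. The authors trimmed reads with Trim Galore 0.6.4, aligned them to mm10 with Bowtie2 2.4.5, filtered them with SAMtools 1.16.1, merged replicates and called peaks with MACS 1.4.2, per the labels and methods. In the deposited peak lists the value is a MACS score. In the deposited summit lists it is a signal, the tag height at the summit. The authors scaled neither to depth, which is unknown and limits precision at low peaks.

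Peaks and summits were joined by name and regions merged and classed with pandas 2.3.3 in Python 3.11.15 (overlap of at least 1 bp). Intervals are 95% Wilson intervals (SciPy 1.17.1), or binomial order statistics for medians. Genes were from GENCODE M21 and sequence from RefSeq GRCm38.p6 (pysam 0.24.0), whose chromosomes match mm10. The code was tested on simulated lists with known classes. The regions, comparison classes and gene lists were chosen with earlier results of these data known. Named were the 6 regions of highest FLAG score, the 2 highest for each H3K27ac state, the 12 coding genes with the highest-scoring promoter regions and up to 4 genes per list, ties by position. Examples of motif windows, word counts and comparisons by height and chromosome were added after the data were seen. Alternatives were score and height limits, equal list sizes, merging distance, distance to excluded peaks, peak width, chromosomes, promoter size and motif window.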

Additional observations from a re-analysis of the deposited data

How the results depend on the processing

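The number of regions, their H3K27ac shares, promoter share, median FLAG height, soft-masked share and AP-1 share were recomputed under the 8 alternative definitions, with 2 more for promoters and motif windows. Of 58 such values, 22 stayed within 1.5 times the count or within the counting interval and 36 moved. With a score of at least 100 in all lists the regions had H3K27ac at 11.9% in NanogWT and 6.14% in NanogBiD, 14.8% at promoters, a median height of 14 tags and 14.3% soft-masked summits. With that limit on NanogWT FLAG alone, 1096 regions were left, with NanogWT H3K27ac at 12.1%, promoters at 8.94%, a median of 13 tags and AP-1 at 3.19%. The 20000 highest-scoring peaks of each list gave 2702 regions, with H3K27ac at 14.8% and 5.70%, a median of 19 tags and 14.7% soft-masked. NanogWT FLAG summits of at least 15 tags gave 813 regions, with H3K27ac at 19.7% and 7.63%, promoters at 15.9%, a median of 17 tags, 15.6% soft-masked and AP-1 at 3.20%. Without an excluded peak within 1 kb, H3K27ac was at 7.47% and 2.92% and promoters at 10.1%. Merging across gaps of up to 500 bp gave 8.07%, 3.62% and 11.1%. Taking 100 bp either side of each summit gave 10846 regions, with H3K27ac at 8.41% and 7.15%, promoters at 17.5%, 15.5% soft-masked and AP-1 at 3.22%. Promoters of 1 kb held 7.37% and motif windows of 25 bp either side held AP-1 in 1.90%. Limiting the lists to assembled chromosomes changed none of these values, and the promoter and motif-window alternatives used the same 5357 regions. The others selected a different set of regions by construction, and the cause of the shifts beyond that was not tested.

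Added after the data were seen, the difference in H3K27ac between NanogWT and NanogBiD kept its sign in 8 of 8 alternatives (1.25 to 12.1 percentage points), as did TAATGG relative to the NanogBiD-only class (-5.76 to -4.74), TEAD relative to that class (1.58 to 3.54) and chromosome X against autosomes (1.32 to 10.9). TAATGG was more frequent at summits than 1 kb away beyond counting error in 1 of the 8, the lists limited to 20000 peaks (6.70% and 4.66%), and not in the other 7. No paired analysis was possible because every antibody and arm came as a single pooled list, without numbered replicates. Depth is unknown, and the lists differ in length, so absence of a peak is absence from a list.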
